A study of Mus musculus with 66 samples.

Results

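Regions of chromatin that were open in mouse small intestinal organoids but carried little acetylation of histone H3 at lysine 27 (H3K27ac) are described here. From the 94469 regions of the union of ATAC and histone peaks, a region was a member if its mean ATAC score over 12 libraries was among the top 20% (at least 23.9), its mean H3K27ac score over 9 libraries was in the lowest 50% (at most 4.22), and its mean score of trimethylated lysine 4 (H3K4me3) over 9 libraries was outside the top 30% (below 2.67). This gave 529 members out of 18910 open regions, of which 641 had little H3K27ac. The score is the read count of a region after normalization and rounding by the authors. Of the other open regions, 3191 were acetylated without high H3K4me3, here called open acetylated regions, and 15190 had high H3K4me3. The members were chosen by these mean scores, which are therefore given as a description. A mean over all cultures can be reached through a single culture, so a member need not be open in each. The 3 regions nearest to the ATAC threshold scored 23.9 inside and 23.8 outside, those nearest to the H3K27ac threshold scored 4.22 inside and 4.33 outside, and those nearest to the H3K4me3 threshold scored 2.56 inside and 2.67 outside.

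The organoids carried a GFP and diphtheria toxin receptor cassette at 1 allele of Lgr5 in all cultures, and p-values measure the spread between libraries, since the labels do not say whether these came from separate cultures. CV organoids were grown for 5 days in the standard medium ENR (EGF, Noggin, R-Spondin) with 3 µM CHIR99021, an inhibitor of the kinase Gsk3 that raises Wnt signalling, and 1 mM valproic acid, an inhibitor of histone deacetylases, and are enriched for stem cells. ENR organoids are the standard mixed culture. EN organoids were kept for 2.5 days without R-Spondin and are enriched for enterocytes. ATAC had 4 libraries per culture, each histone mark 3 in the table, RNA 4, and ChIP of the enterocyte factor Hnf4g 1.

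ATAC marks DNA that a transposase can reach. Most open regions away from promoters are enhancers, where bound transcription factors recruit acetyltransferases and the flanking nucleosomes carry H3K27ac. DNA can also be open without that mark, for instance where the zinc finger protein CTCF binds and stops cohesin loops, at silencers, and at enhancers that are primed but not in use.

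In RNA, the epithelial markers Epcam, Cdh1, Vil1, Cdx2, Krt8, Krt20 and Alpi were high in every library, while Lgr5 was low in EN. Epcam, an adhesion protein of epithelia, had mean TPM (transcript abundance scaled to the library total) of 909 to 1460 over the cultures. The stem cell receptor Lgr5 was at 31.3 ± 1.51 TPM in CV and 0.514 ± 0.212 in EN (SD, n = 4), and the brush border enzyme Alpi at 114 ± 7.69 in CV and 371 ± 15.6 in EN. Of 11 markers of stroma, blood and endothelium, 6 are not listed in the table used here. Of the 5 measured, Col1a1, Col1a2, Acta2 and Ptprc stayed at or below 0.834 TPM in every library, while Vim ran from 2.82 ± 0.302 TPM in CV to 17.8 ± 2.26 in EN (SD, n = 4). The part of these cell types in the ATAC differences was not tested, and more cells with an open region cannot be told apart from a more open region per cell.

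The members fell into 3 sets by how their score was spread over the ATAC libraries, and this bears on every count that follows. In 338 members the replicates of a culture agreed, with a log2 range that in the middle culture was at most 1.60. In the other 191 that range was at least 2.17, and no member lay between. The 191 split again. In 142 members, EN replicate 1 alone held at least 50.9% of the score summed over 12 libraries, against at most 24.8% in every other member. The remaining 49 were highest in EN replicate 3 by their median. The limits of 1.8 for the range and 0.5 for the share were set after the scores were seen, so the sets get no test.

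The 338 members with even replicates had median ATAC scores of 27 to 34 in every one of the 12 libraries. In the 142 members the medians were 62.5, 9, 3 and 2 in CV replicates 1 to 4, 10.5, 4, 1 and 1 in ENR, and 280, 49, 1 and 1 in EN. Replicate 1 stood highest in each culture there and replicate 2 next, while replicates 3 and 4 were close to 0. The 49 members had medians of 26, 10, 56 and 48 in CV, 16, 14, 4 and 40 in ENR, and 44, 43, 158 and 25 in EN. Culture means of the 142 members are set by 1 or 2 libraries. In the 49, more libraries contributed, but unevenly. Results are therefore given with and without these 191 members.

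**Figure D1:**
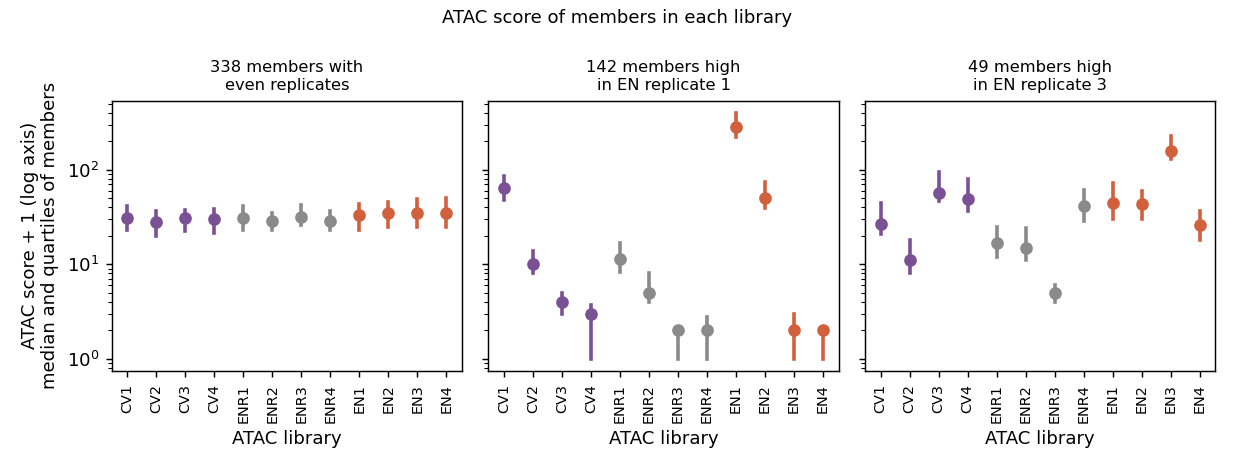
ATAC score plus 1 on a log axis in each of the 12 libraries, for the 3 sets of members. Points are medians over members and lines run from the lower to the upper quartile. The 338 even members lie at one level in all libraries, the 142 peak in EN replicate 1 with a median score of 280, and the 49 peak in EN replicate 3 with 158.

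The 3 sets also differed in what the rule did not use. Median width was 354 bp in the even members, 145 bp in the 142 and 117 bp in the 49. Letters of interspersed repeats that derive from the 7SL RNA were more frequent in the 142. The letters GGATTACAG, as Alu elements of primates hold them, were found on either strand in the central 200 bases of 14.8% of the 142, in 0% of the 338 and in 0.738% of all regions. GGATTAAAG, as B1 elements of the mouse hold them, was found in 10.6%, 0.296% and 0.821%. These 2 motifs were chosen after the sequences were seen, and the part of repeats or of library preparation in the scores was not tested. Among the open regions that were not members, 12 showed the pattern of EN replicate 1 and 5 that of EN replicate 3.

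Without EN replicate 1 the rule would choose 412 regions, of which 387 are among the 529. They would include 317 of the 338 even members, 49 of the 49 and 21 of the 142. With the median ATAC score in place of the mean it would choose 400, of which 301 are even members, 34 of the 49 and 1 of the 142. Per kb of region, the median H3K27ac score was 8.73 in the even members and 24.6 in open acetylated regions, and the rule applied to scores per kb kept 500 of the 529 members among 3792 regions.

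Before the comparisons, the sequences that carry the results are shown. They are the central 200 bases of members in the mm9 genome, plus strand, with coordinates as the table numbers them. The first 4 are among the 5 even members with the highest ATAC score of those with a CTCF core, the 12 conserved letters in the middle of the CTCF motif, which stand in capitals on either strand.
Member near Eef1b2, chr1:63227702-63227901: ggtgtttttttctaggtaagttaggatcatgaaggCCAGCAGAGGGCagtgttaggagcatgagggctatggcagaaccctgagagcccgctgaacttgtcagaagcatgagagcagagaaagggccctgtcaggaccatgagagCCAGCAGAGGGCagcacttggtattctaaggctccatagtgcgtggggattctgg
Member near Gm10073, chr8:109085032-109085231: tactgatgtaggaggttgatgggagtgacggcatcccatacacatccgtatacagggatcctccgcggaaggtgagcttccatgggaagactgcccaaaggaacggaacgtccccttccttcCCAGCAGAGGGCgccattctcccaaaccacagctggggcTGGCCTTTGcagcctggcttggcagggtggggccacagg
Member near Phlda3, chr1:137649543-137649742: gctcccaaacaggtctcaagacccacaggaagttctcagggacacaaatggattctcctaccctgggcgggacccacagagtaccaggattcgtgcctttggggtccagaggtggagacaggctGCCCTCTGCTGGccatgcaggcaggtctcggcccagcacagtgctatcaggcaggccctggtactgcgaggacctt
Member between genes, Bmp4 nearest, chr14:47159568-47159767: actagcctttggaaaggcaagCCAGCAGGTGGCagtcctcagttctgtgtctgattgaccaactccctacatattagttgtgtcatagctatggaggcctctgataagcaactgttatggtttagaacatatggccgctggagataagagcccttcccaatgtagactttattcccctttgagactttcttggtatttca

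The window near Eef1b2 holds the core letters at 2 places, and that near Gm10073 also holds an HNF4 motif in capitals. The next 3 are members with many reads of Hnf4g in EN that hold an HNF4 motif (CAAAGNNCA, either strand, in capitals), the site of the nuclear receptors Hnf4a and Hnf4g.
Member near Celf2, chr2:7167922-7168121: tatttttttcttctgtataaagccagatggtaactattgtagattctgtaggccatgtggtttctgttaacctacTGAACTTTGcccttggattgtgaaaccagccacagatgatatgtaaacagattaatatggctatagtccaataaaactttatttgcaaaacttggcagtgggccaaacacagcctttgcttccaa
Member near 6030445D17Rik, chr4:136008759-136008958: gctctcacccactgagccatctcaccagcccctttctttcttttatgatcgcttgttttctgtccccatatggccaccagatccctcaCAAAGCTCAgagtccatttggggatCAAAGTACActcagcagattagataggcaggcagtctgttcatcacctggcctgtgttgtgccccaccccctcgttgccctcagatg
Member at the start of Tnnt1, chr7:4461566-4461765: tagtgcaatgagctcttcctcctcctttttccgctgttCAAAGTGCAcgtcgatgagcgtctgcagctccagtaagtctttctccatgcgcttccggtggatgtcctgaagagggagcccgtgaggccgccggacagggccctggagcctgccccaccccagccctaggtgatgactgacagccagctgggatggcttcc

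The last 2 are among the 5 largest falls in ATAC from CV to EN and hold the letters searched here for AP-1 (TGANTCA, in capitals). AP-1 is formed by Fos and Jun proteins. The search accepted any base at N, so not every match need be a site of these proteins.
Member in Dock4, chr12:41265473-41265672: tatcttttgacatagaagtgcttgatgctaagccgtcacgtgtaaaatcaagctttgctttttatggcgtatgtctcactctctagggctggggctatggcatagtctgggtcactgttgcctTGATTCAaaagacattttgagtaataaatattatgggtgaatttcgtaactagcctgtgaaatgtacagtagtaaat
Member in Eml6, chr11:29739907-29740106: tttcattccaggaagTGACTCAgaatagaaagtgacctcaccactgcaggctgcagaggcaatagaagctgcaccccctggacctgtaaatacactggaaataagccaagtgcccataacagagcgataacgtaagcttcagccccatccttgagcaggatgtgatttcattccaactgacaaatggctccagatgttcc

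Of the 9 motifs searched, the CTCF core differed most between the even members and other open regions by the ratio of shares. In the central 200 bases, 32 of 338 even members held one, 9.47% (95% Wilson interval 6.79 to 13.1%). The share was 0.533% of open acetylated regions, 0.277% of open regions with high H3K4me3 and 3.35% of all regions. None of the 191 uneven members held one. Among all 529 members the share was 6.05% (4.32 to 8.41%). With 1 mismatch allowed, a choice made after the data were seen, the shares were 22.2% in even members, 3.32% in open acetylated regions and 10.2% in all regions. The core lay on the plus strand in 17 of the 32 and on the minus strand in 15, and within 50 bp of the centre in 14. By the annotation, 78.1% of these 32 were intergenic by their centre, and the median distance to the start site of a protein-coding gene was 15920 bp, against 33760 bp for all 338. That distance was 14280 bp in the 17 open acetylated regions with a core and 24770 bp in all open acetylated regions.

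Motifs of intestinal and signal-dependent factors were also present. AP-1 letters stood in 25.7% of even members, 26.7% of open acetylated regions and 14% of all regions. The motif of the intestinal homeobox factors Cdx1 and Cdx2 (TTTATNG) was in 19.8%, 18.9% and 12.1%, and that of GATA factors (AGATAA) in 20.7%, 23.5% and 14%. HNF4 letters were in 10.4% of even members (7.54 to 14.1%), 19.3% of open acetylated regions (17.9 to 20.7%) and 11% of all regions. The letters of Klf and Sp factors (GGGCGG) were in 9.76%, 5.46% and 13.4%, and in 33.5% of the open regions with high H3K4me3, most of which lie at promoters. For the remaining motifs, the shares in even members and open acetylated regions were 7.1% and 6.37% for TCF/LEF (CTTTGAT), 11.8% and 14.4% for TEAD (CATTCC), and 3.85% and 5.99% for FOXA (TGTTTAC). In all regions they were 3.97%, 11.8% and 3.76%. A match is a stretch of letters and not a bound site, and several motifs can stand in 1 window.

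**Figure D2:**
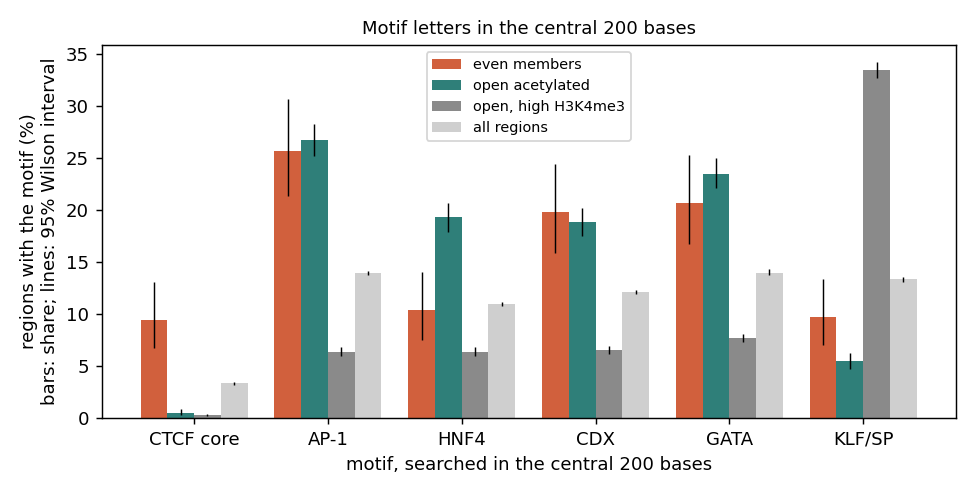
Share of regions, in percent, whose central 200 bases hold each of 6 motifs on either strand, for the even members, the open acetylated regions, the open regions with high H3K4me3 and all regions. Bars are shares and lines 95% Wilson intervals. The CTCF core stands at 9.47% in the even members and 0.533% in open acetylated regions, while HNF4 letters stand at 10.4% and 19.3%.

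Most members lay away from start sites, which follows in part from the rule, since it left out regions with high H3K4me3. A start site lay within 500 bp of 33 of the 529, 6.24% (4.48 to 8.63%), and of 20 of the 338 even members, 5.92% (3.86 to 8.96%). The share was 2.88% in open acetylated regions, which passed the same H3K4me3 limit, so the members lay near start sites more often than these. It was 65.7% in open regions with high H3K4me3 and 19.1% in all regions. By their centre, 59.8% of the even members were intergenic, 34% intronic and 6.21% exonic. No member lay within 20 kb of a start site of the 121 genes on lists (chosen with results known) of stem cell and Wnt genes (16 genes), enterocyte genes (21), secretory genes (12), intestinal transcription factors (11), imprinted genes (22) or the Hox clusters (39). Of the 3191 open acetylated regions, 10 lay that close to enterocyte genes, 7 to imprinted genes, 4 to transcription factor genes, 2 to stem cell and Wnt genes, 1 to secretory genes and 0 to Hox genes. Such regions were thus rare in that far larger set as well. No share over all regions was computed, so the 0 among 529 members is not read as a trait of the members.

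The 2 highest mean ATAC scores belonged to a pair in Myo3a, a gene for a myosin, on chromosome 2, and both match the mitochondrial chromosome. The member chr2:22444989-22445365 aligned over 378 bases at 98.7% identity, and chr2:22442901-22443185 over 296 bases at 93.2%. Copies of mitochondrial DNA in the nuclear genome are known, and reads of the organelle can map to them, although the authors discarded mitochondrial reads. Scores of the first were 142, 93, 240 and 200 in CV, 235, 112, 217 and 265 in ENR, and 284, 309, 404 and 262 in EN. The EN libraries all lay above the CV libraries. The difference between EN and CV was 0.96 ± 0.26 on the log2(score + 1) scale (SE, n = 4, limma, adjusted p = 0.00665). The second scored 78, 59, 189 and 205 in CV, 162, 71, 210 and 217 in ENR, and 264, 353, 484 and 260 in EN, a difference of 1.5 ± 0.37 (limma, adjusted p = 0.00342). The part of mitochondrial reads in these scores was not tested, and no other member matched. Of the next 3 by score, 2 belonged to the set of EN replicate 1 and 1 to that of EN replicate 3. The member chr2:125973579-125973726, 147 bp wide in an intron, scored 310, 56, 16 and 8 in CV, 77, 29, 2 and 4 in ENR, and 1538, 356, 6 and 3 in EN, and the cultures overlapped. The member chr7:87697841-87697992 scored 995 in EN replicate 1 and at most 235 in any other library, and chr14:22432749-22432846 in Myst4 ran from 17 in ENR replicate 3 to 368 in EN replicate 3.

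Among even members outside that pair, the 3 highest, picked after the scores were seen, were chr17:91638012-91638542, chr14:120536897-120537373 and chr8:5106867-5107211. The last lies 1.64 kb from the start site of Slc10a2, the bile acid transporter of the ileum. It scored 67, 56, 59 and 69 in CV, 89, 71, 78 and 68 in ENR, and 123, 123, 133 and 105 in EN. All EN libraries were above all others, with a rise from CV of 0.94 ± 0.12 (SE, n = 4, log2(score + 1), limma, adjusted p = 1.01e-05). The member on chromosome 14 scored 97, 95, 102 and 71 in CV and 63, 103, 85 and 85 in EN, and the cultures overlapped.

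The first comparison asks how openness differed between EN, rich in enterocytes, and CV, rich in stem cells. Of 529 members, 200 were called in limma at an adjusted p under 0.05 (37.8%), 123 higher and 77 lower in EN than in CV, where 35.2% of all 94166 regions tested were called, 19.6% higher and 15.6% lower. At the study's stricter threshold 51 were called, but no share of all regions at that threshold is given here, so this count is not compared. All 200 calls fell in the 338 even members, 59.2% of them. That share compares with 36.6% of all regions with even replicates and 48.8% of all open regions. It was 66.3% in open acetylated regions and 45.5% in open regions with high H3K4me3. Choosing even replicates favours calls, and a high ATAC score also sets how easily a change is seen. The median ATAC score was 29.6 in even members, 34.1 in open acetylated regions and 5.92 in all regions with even replicates. Open acetylated regions are thus the nearer in level, and their share called was higher. The median difference was 0.22 in even members, 0.39 in open acetylated regions and 0.05 in all regions (log2), and in the even members it ran from -1.26 at the 10th percentile to 1.61 at the 90th. None of the 142 or the 49 was called, at medians of 0.77 and 0.76, and none of these 191 had an unadjusted p under 0.05. The 4 libraries of EN and the 4 of CV did not overlap in 171 of the even members and in none of the other members. This was 50.6% of the even members and 32.3% of all 529. The share was 58.7% in open acetylated regions, 42.6% in all open regions and 27.5% in all regions.

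Conversely, the 95% interval of the difference lay within 2-fold in either direction for 153 of the 529 members, all of them even. This was 45.3% of the even members, 39.9% of open acetylated regions, 76.7% of open regions with high H3K4me3 and 32% of all regions tested.

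**Figure D3:**
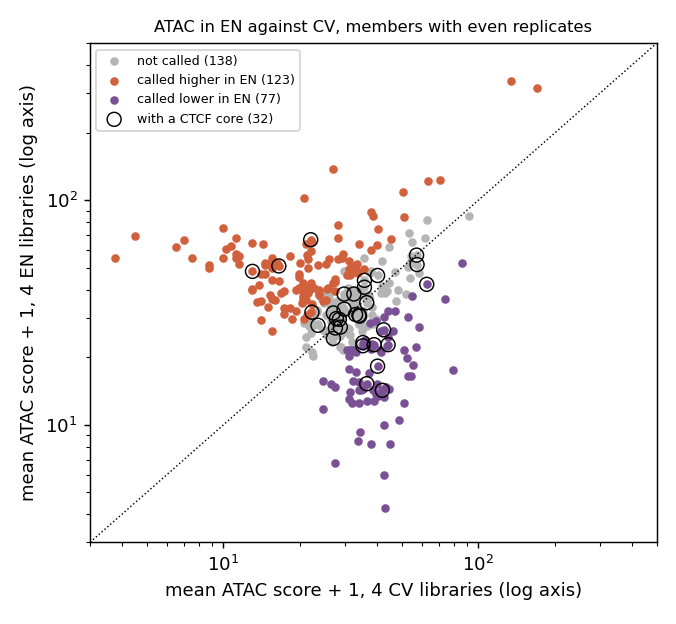
Mean ATAC score plus 1 over the 4 EN libraries against the mean over the 4 CV libraries, log axes, for the 338 even members. Colours mark the 123 called higher in EN, the 77 called lower and the 138 not called, rings mark the 32 with a CTCF core, and the dotted line is equality. The pair at the top right is the one that matches mitochondrial DNA.

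The 5 largest rises lay in intergenic DNA, 37.6 to 587 kb from the nearest protein-coding start site. The largest, chr13:116177745-116178267, is nearest to Itga1, the alpha 1 subunit of a collagen-binding integrin. It scored 4, 2, 3 and 5 in CV, 13, 9, 16 and 16 in ENR, and 54, 46, 84 and 90 in EN. The cultures did not overlap, and the rise from CV to EN was 3.94 ± 0.27 (SE, n = 4, limma, adjusted p = 8.96e-09). The next, chr16:86766576-86766937 with N6amt1, a methyltransferase gene, as its nearest, scored 2, 3, 2 and 4 in CV, 14, 16, 20 and 12 in ENR, and 41, 46, 60 and 71 in EN. ENR stood between the other cultures in both. The third, chr1:109734466-109734833 near Serpinb8, a protease inhibitor gene, rose by 3.28 ± 0.24 and had no Hnf4g read in any of the 3 libraries. The member chr14:80208698-80209381, nearest to the protocadherin gene Pcdh8, scored 6, 6, 3 and 9 in CV but 45, 45, 42 and 42 in ENR and 37, 64, 79 and 83 in EN. Here ENR was near EN, and the difference between those was 0.52 (limma, adjusted p = 0.16). The fifth, chr1:71052519-71052866, nearest to Bard1, the partner of Brca1 in DNA repair, rose by 2.92 ± 0.21 and is the only one of the 5 called in H3K27ac, as described below.

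The 5 largest falls lay 7.62 to 405 kb from a start site. The largest, chr3:148081022-148081358 near Lphn2, an adhesion receptor gene, scored 53, 39, 33 and 43 in CV, 35, 38, 56 and 46 in ENR, and 2, 4, 3 and 4 in EN. CV and ENR overlapped, EN lay far below both, and the fall from CV was -3.35 ± 0.22 (SE, n = 4, limma, adjusted p = 5.66e-09). The member in an intron of Dock4, an activator of Rac and Rap GTPases, scored 33, 35, 47 and 52 in CV, 28, 29, 30 and 24 in ENR, and 1, 6, 5 and 8 in EN, a difference of -3.0 ± 0.33 (limma, adjusted p = 1.83e-06). RNA of Dock4 was lower in EN as well, by -3.57 on the log2 scale (edgeR, adjusted p = 7.35e-10). The member chr17:74146115-74146557, 7.62 kb from Ehd3, an endocytic gene, scored 44, 46, 35 and 51 in CV, 19, 20, 30 and 24 in ENR, and 7, 9, 8 and 5 in EN, in 3 steps without overlap. RNA of Ehd3 differed by 1.42 in the other direction, which did not pass the test (edgeR, adjusted p = 0.318). The other two, near Cd34 and in Eml6 with 4931440F15Rik as the gene of its nearest start site, fell from means of 50 and 48 in CV to 11.5 and 9.5 in EN.

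**Figure D4:**
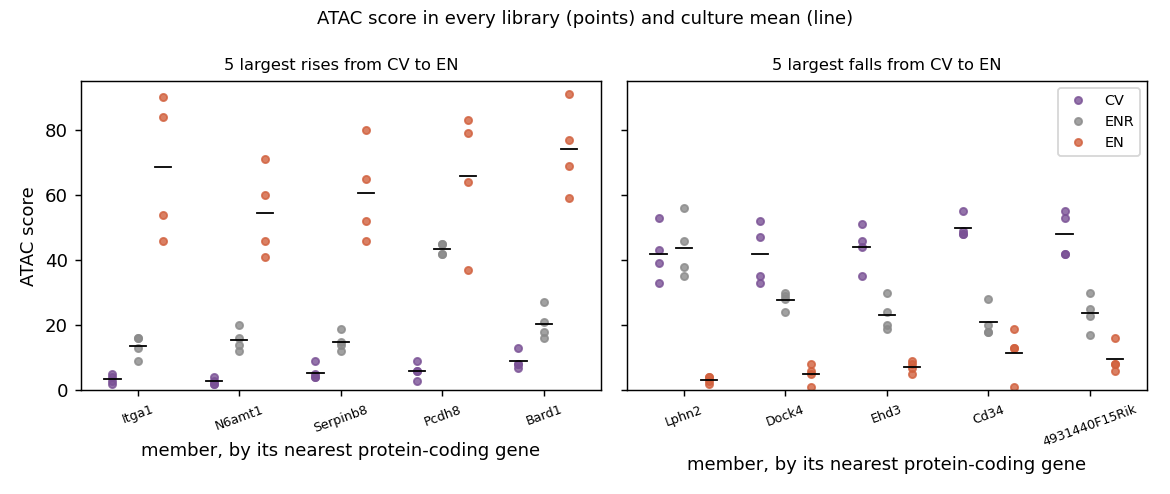
ATAC score in every library (points) and culture mean (black line) for the 10 named members that changed most between CV and EN, 5 in each direction, each named by its nearest protein-coding gene. In the rises all EN points lie above all CV points, with a highest EN score of 91, and in the falls all EN points lie below all CV points.

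Calls between EN and CV are given here by motif, where of all 338 even members 36.4% were higher and 22.8% lower, and of all regions with even replicates 20.4% and 16.2%. Of the 32 even members with a CTCF core, 3 were called higher and 9 lower in EN, and the interval of 68.8% lay within 2-fold, against 42.8% of the 306 without one. Their median difference was -0.05. In the 17 open acetylated regions with a CTCF core, 3 were called higher and 4 lower, at a median of -0.21. There the interval of 64.7% lay within 2-fold, near the share of the members with a core. Of the 35 with HNF4 letters, 22 rose and 3 fell, at a median of 0.70, and in the 614 open acetylated regions with the same letters 345 rose and 69 fell, at a median of 0.67. Of the 87 with AP-1 letters 29 rose and 24 fell, of the 67 with CDX letters 31 rose and 12 fell, and of the 70 with GATA letters 36 rose and 15 fell. The groups share members and were not tested against each other.

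The CTCF-core member near Eef1b2, a translation elongation factor gene, scored 52, 52, 60 and 61 in CV, 47, 36, 41 and 44 in ENR, and 53, 55, 52 and 64 in EN. CV and EN overlapped, and their difference was -0.01 ± 0.13 (SE, n = 4, limma, adjusted p = 0.983). The member near Gm10073 scored 61, 62, 60 and 64 in CV, 53, 47, 38 and 43 in ENR, and 32, 49, 45 and 39 in EN, and fell from CV to EN by 0.59 ± 0.15 (limma, adjusted p = 0.0045). The member 149 kb from Bmp4, a signalling ligand gene, went the other way, with 18, 18, 29 and 19 in CV, 28, 38, 52 and 43 in ENR, and 69, 53, 67 and 74 in EN, a rise of 1.62 ± 0.20 (limma, adjusted p = 4.59e-06).

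Against ENR, the culture that the other comparisons share, 199 members were called in EN, 138 higher and 61 lower (37.6%, against 24% of all regions, 11.6% higher and 12.5% lower). Even members gave 160 of these, 99 higher and 61 lower, which was 47.3% of the even members. In open acetylated regions the share called was higher, at 54.7%, with 32.2% higher and 22.5% lower in EN. In all open regions it was 34.9%. At the study's stricter threshold 14 members were called, 7 in each direction, again without a share of all regions. The others of the 199, all higher in EN, were 38 of the 49 members high in EN replicate 3 and 1 of the 142. With the replicate number added to the fit, 331 members were called, 267 higher and 64 lower. The count of 199 thus depends on whether libraries of the same number belong together, which the labels do not say. Between CV and ENR, 93 members were called, 35 higher and 58 lower in CV (17.6%, against 15.8% of all regions, 5.11% higher and 10.7% lower), all of them even. At the study's stricter threshold 3 were called, also without a share of all regions. In open acetylated regions 37.7% were called in that comparison, 240 higher and 962 lower in CV.

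Acetylation was low by choice. The median H3K27ac score of the even members was 2, 3 and 3 in the CV libraries, 2, 2 and 2 in ENR, and 3.5, 2 and 3.5 in EN, against 8, 12 and 11, then 8, 6 and 8, then 12, 9 and 13 in open acetylated regions. For H3K27ac, 3 of the 529 were called between EN and CV in limma, 2 higher and 1 lower in EN (0.567%, against 7.03% of all regions, 5.07% higher and 1.96% lower). An unadjusted p under 0.05 was reached by 38 members (limma, 7.18%, against 20% of all regions). The member nearest to Bard1 scored 1, 1 and 1 in CV, 2, 3 and 5 in ENR, and 8, 4 and 10 in EN, without overlap, and rose by 1.98 ± 0.61 (SE, n = 3, limma, adjusted p = 0.0436). The 1 member called lower was of the set of EN replicate 1, chr11:103280921-103281062, with 3, 11 and 5 in CV and 1, 1 and 0 in EN. Leaving out 1 library at a time gave 0 to 5 calls, with 5 without CV replicate 3, all lower in EN, 1 without ENR replicate 1 or 2, again lower, and 0 without any of the other 6, so neither the number nor the direction of these calls is stable. Between CV, which holds the deacetylase inhibitor, and ENR, no member was called, while 1.83% of all regions were, 0.541% higher and 1.29% lower. Here 49 members had an unadjusted p under 0.05 (limma, 9.26%, against 16% of all regions). The median difference was 0.33 in the even members and 0.33 in all regions, and 0.44 in all 529 (log2), where the 142 had 0.53 and the 49 had 0.47. Between EN and ENR none was called either, while 1.57% of all regions were, 1.22% higher and 0.353% lower. There 29 members had an unadjusted p under 0.05 (limma, 5.48%, against 13.1% of all regions).

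For H3K4me3, 387 of the 529 members were above 0 in at least 3 libraries and were tested, of which 5 were called higher and none lower in EN than in CV (1.29%, against 4.9% of all regions, 2.75% higher and 2.15% lower), and 2 of the 5 were even members. The largest of these rises, chr2:9378417-9378881, scored 0, 0 and 0 in CV and 1, 1 and 3 in EN, so this call rests on scores of 3 or less. Leaving out 1 library at a time gave 4 to 13 calls, with 13 without CV replicate 4, 11 without CV replicate 3 and 10 without EN replicate 1, of which the first 2 counts are all higher in EN and the last is 6 higher and 4 lower. Quantile normalization gave 0. The rule also held the H3K4me3 scores low, which limits what can be called. In EN replicate 1 the lower quartile, median and upper quartile of the members were all 1.

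H3K27me3, the Polycomb mark, was not used to choose members. Its score, taken over regions extended to 1000 bp, had medians in the even members of 6, 7 and 8 in CV, 5, 8 and 6 in ENR, and 7, 9 and 12 in EN. In open acetylated regions the medians were 3, 6 and 6, then 4, 5 and 3, then 7, 9 and 8. The even members were thus higher in 7 of 9 libraries and level in 2. Against all regions, the even members were higher in 3 libraries, level in 3 and lower in 3, where all regions had medians of 5, 8 and 8 in CV, 6, 6 and 6 in ENR, and 9, 9 and 9 in EN. Averaged over libraries, the median over members was 11.2 in the 142, 11.7 in the 49 and 8.22 in the 338, against 7.67 in all regions. The highest of the 529 was chr6:3150728-3150926, an even member with a mean score of 40.7, and the next, chr7:52879015-52879176 and chr11:32185037-32185193 with 35.1 and 29.2, belonged to the set of EN replicate 1. No member was called between EN and CV in limma (0.528% of all regions were, 0.14% higher and 0.388% lower), while 2 were called without any 1 of the 3 ENR libraries. An unadjusted p under 0.05 was reached by 58 members (limma, 11%, against 9.08% of all regions).

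Hnf4g was measured by ChIP in 1 library per culture, so its values have no replicate check and no test, and intervals cover counting error only. The libraries held 84340 reads in regions for CV, 352600 for ENR and 1816497 for EN. The 529 members made up 0.396% of the length of all regions but held 0.266% of the reads in CV (224 reads, 95% exact Poisson interval 0.232 to 0.303%), 0.209% in ENR (738 reads) and 0.174% in EN (3153 reads, 0.168 to 0.18%). Per kb of region and 1000000 reads, the even members had 19.5, 15.4 and 12 in CV, ENR and EN, where all regions had 26.9. The scaling gives all regions 26.9 in every culture. The values are therefore shares that compare regions within a library, and not amounts of Hnf4g between cultures. The study describes Hnf4g binding in CV as nearly absent. Open acetylated regions had 32.6, 30.5 and 25.6. Even members with HNF4 letters had 37.7 (27.1 to 50.9) in CV, 29.0 (24.3 to 34.3) in ENR and 20.6 (18.8 to 22.5) in EN. These were above the even members as a whole and below the 50.7, 44.0 and 35.4 of the open acetylated regions with the same letters. Even members with a CTCF core had 5.67 (1.84 to 13.2), 13.6 (10.1 to 17.9) and 8.95 (7.66 to 10.4). The open regions with high H3K4me3 made up 48.9% of the length and took 66.6% of the reads in EN and 55.6% in CV. Per kb and 1000000 reads they had 36.6 in EN and 30.6 in CV.

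**Figure D5:**
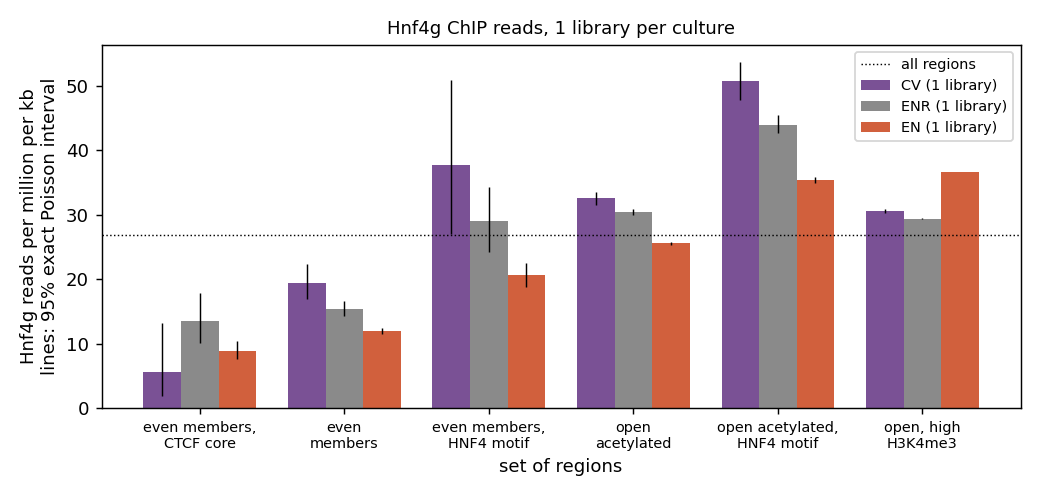
Reads of Hnf4g ChIP per 1000000 reads in regions and per kb of region, for 6 sets of regions in 3 cultures with 1 library each. Lines are 95% exact Poisson intervals and the dotted line is the value of all regions, 26.9. The scaling sets this value in every culture, so bars compare sets within a culture. Even members lie below it in each culture, and those with HNF4 letters above the even members as a whole.

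Of the members, 30 had 20 or more reads in EN and 107 had none, for which the exact Poisson interval reaches 3.69 reads. The most reads, 57 (43.2 to 73.9), stood in chr4:135318354-135318679, an exonic region 2.72 kb from a start site of Myom3, a muscle gene, without HNF4 letters in its central 200 bases. It had 0 reads in CV and 4 in ENR. The member near Celf2, an RNA-binding protein gene, had 5, 12 and 56 reads in CV, ENR and EN, and that near 6030445D17Rik 6, 22 and 52. Per 1000000 reads these were 59.3, 34.0 and 30.8 for the first and 71.1, 62.4 and 28.6 for the second. These too are shares of each library, rest on few reads in CV, and do not show a fall in binding. Their ATAC scores overlapped between CV and EN for the first, at means of 33 and 27, while the second was called lower in EN at -0.52 ± 0.18 (SE, n = 4, limma, adjusted p = 0.0282). The member at the start of Tnnt1, a troponin gene, had 2, 4 and 38 reads, and the member in Trpm6, a gene for an intestinal magnesium channel, 0, 7 and 37. The latter scored 27, 29, 29 and 28 for ATAC in CV, 19, 20, 16 and 14 in ENR, and 53, 59, 44 and 62 in EN, highest in EN without overlap.

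RNA of the nearest protein-coding genes was read beside the ATAC calls. Members called higher in EN had 117 such genes, of which 38 are among the transcripts measured. Of these, 10 were higher and 18 lower in EN than in CV (edgeR), at a median of -0.22. Members called lower had 77, of which 33 were measured, 10 higher and 19 lower, at a median of -0.59. Of all 9288 transcripts tested 81.8% were called, 37.8% higher and 44% lower, at a median of -0.08. Even members not called in ATAC had 55 measured genes, 17 higher and 28 lower, at a median of -0.19, so all 3 groups held more lower than higher genes, whichever way the member went. The largest fold near a risen member was that of Cryz, a quinone reductase gene, at 6.46 to 7.94 TPM in CV and 0 to 0.179 in EN, that is, opposite to the member. Efnb2, the gene of ephrin B2, went with its member 702 kb away, from 6.01 to 7.89 TPM in CV to 40.4 to 50.0 in EN, a log2 difference of 2.97 (edgeR, adjusted p = 3.49e-14). The condensin gene Smc2, the repair gene Fignl1 and the ciliary gene Ttc8 differed by -4.1, -5.56 and -4.05. Near fallen members, Psat1, an enzyme of serine synthesis, was at 131 to 136 TPM in CV, 58.4 to 68.0 in ENR and 5.72 to 7.80 in EN. Its member lies 0.253 kb from a start site and fell by 1.39 in ATAC. Nap1l1, a histone chaperone gene, Itih5, a matrix gene, and Thbs1, thrombospondin 1, differed by -5.44, -4.69 and -3.87, while Ptgs1, the gene of cyclooxygenase 1, differed by 4.84 near a member that fell.

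As 32 of the even members held a CTCF core, RNA of CTCF and of the cohesin genes, a list of 12, is given as well. Ctcf was at 18.7 ± 0.95 TPM in CV, 26.2 ± 0.828 in ENR and 15.5 ± 2.44 in EN (SD, n = 4), and its difference between EN and CV did not pass the test (0.05 on the log2 scale, edgeR, adjusted p = 0.598). Of 11 genes measured, 4 were called higher in EN, namely Stag1, Stag2, Nipbl and Mau2, and 4 lower, namely Smc1a, Smc3, Pds5a and Pds5b. The direction of Stag1 depends on the scaling, since it was 0.21 higher in the fit (TMM) but went from 17.8 ± 1.19 TPM in CV to 16.5 ± 0.971 in EN, and Ctcf also had opposite signs on these scales. The core subunit Smc3 went from 33.9 ± 0.193 TPM in CV to 12.8 ± 1.23 in EN, a difference of -1.09 (edgeR, adjusted p = 7.14e-11), and Stag2 from 75.9 ± 3.34 to 103 ± 4.43, a difference of 0.75 (adjusted p = 3.79e-10). Rad21, the cleavable cohesin subunit, and Ctcfl, the germline paralog of Ctcf, did not pass the test.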

How the data were processed

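ATAC, ChIP of 3 histone marks and of Hnf4g, and RNA were measured in CV, ENR and EN organoids, grouped by the labels. Per the study's methods and the submitters' processing notes, reads were aligned to mm9 with BWA, duplicates were removed with Picard, and peaks were called with MACS2 2.0 at a false discovery rate of 0.01 and joined. The deposited score is a read count per region that the authors normalized between libraries and rounded, over 1000 bp for H3K27me3. Its scaling is not given in the sources used here, and the depth behind it is unknown. ATAC scores summed to 1752385 to 2109261 per library. The Hnf4g reads were deposited as raw counts per region. For RNA, the authors deposited estimated counts and TPM from kallisto, whose version differs between the methods and the processing notes, limited to transcripts of detected proteins, so many nearest genes have no value.

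Scores were tested with limma 3.58.1 on log2(score + 1) with a trend, over regions above 0 in at least 3 libraries, with Benjamini-Hochberg adjustment over all regions tested and a threshold of 0.05. RNA was tested with edgeR 4.0.16 (quasi-likelihood, TMM) on estimated counts rounded to whole numbers, for transcripts above 0 in at least 4 libraries, taking per gene the transcript with the highest mean count. RNA libraries held 5630977 to 8859757 counts. The 92 spike-in rows, 0.837 to 1.36% of counts, were left out, as were 12 columns of protein copy number. Both fits were tested on simulated data. Genes and start sites came from GENCODE vM1, with distances from the region's edge, and 129 regions had no genome sequence. Coordinates were read as numbered from 1. The genome given carries no repeat marking, so the share of repeats was not computed. Mitochondrial matches came from blastn 2.17.0+. Histone libraries without a column in the table were not used here.

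Members named are the 5 largest rises and falls in ATAC between CV and EN whose libraries did not overlap, the 5 with most ATAC, the 5 with most Hnf4g reads in EN, the 3 with most H3K27me3, the 5 CTCF-core members with most ATAC, and the largest called change in each mark. Of the CTCF-core members, 1 is not reported here. The members and lists were chosen with earlier results of these data known.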

Additional observations from a re-analysis of the deposited data

Results flagged for a closer look

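Among 33 named members, 99 groups of 4 ATAC libraries were tested for a library far from the others, and 9 were flagged by Dixon's ratio, where chance flags about 1 in 20 groups. Of these, 6 belong to members of the set high in EN replicate 1, and the library was replicate 1 each time. The member chr2:125973579-125973726 scored 310 in CV replicate 1 against 8 to 56 in the other CV libraries. The member chr7:52879015-52879176 scored 127 in CV replicate 1 against 2 to 19. The member chr11:32185037-32185193 scored 44 in CV replicate 1 against 0 to 5, and 219 in EN replicate 1 against 0 to 30. The member chr11:103280921-103281062 scored 46 in CV replicate 1 against 0 to 5, and 219 in EN replicate 1 against 2 to 30.

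The other 3 were even members with a small gap. The member nearest to Bard1 scored 13 in CV replicate 4 against 7 to 8, the member nearest to Cd34 scored 55 in CV replicate 3 against 48 to 49, and the member nearest to Bmp4 scored 29 in CV replicate 3 against 18 to 19.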

How the results depend on the processing

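At the stricter thresholds of the study, the members called in ATAC fell to 51 between EN and CV, 14 between EN and ENR and 3 between CV and ENR, and those called between EN and CV in H3K27ac and H3K4me3 to 0. Shares of all regions at those thresholds are not given here, so these counts are not compared with other regions. Leaving out 1 library at a time gave 179 to 204, 149 to 201 and 71 to 101 calls in ATAC, 139 to 156 members within 2-fold, 0 to 5 calls in H3K27ac, 4 to 13 in H3K4me3, 0 to 2 in H3K27me3 and 56 to 58 nearest genes. The labels name nothing that libraries of 1 replicate number share, and not every same-numbered pair exceeded a correlation of 0.1, so the numbers were not taken as pairing. Same-numbered ATAC libraries correlated at 0.07 to 0.46 in their deviations (mean 0.17, against -0.056 for others) and histone libraries at -0.081 to 0.131. In 16 of 24 cases an ATAC library correlated best with its own number in another culture, a hint from the data and not from the design. With the replicate block, 222 members were called in ATAC between EN and CV, 331 between EN and ENR (267 higher, 64 lower) and 128 between CV and ENR, 0 in H3K27ac and 10 in H3K4me3. Without the trend H3K27ac gave 1 call. Quantile normalization gave 1 in H3K27ac, 0 in H3K4me3 and 1 in H3K27me3, and a pseudocount of 5 gave 2 in H3K27me3. In even members alone, H3K4me3 gave 2. Within 50 kb, 35 nearest genes were called in place of 57. The Hnf4g share of 0.174% was 1.55% with the rule per kb (3792 regions), 0.0228% with the top 10% by ATAC (69), 0.145% in even members (338), 0.149% without EN replicate 1 (412) and 0.15% by the median score (400), which moves with the number of regions. Per kb and 1000000 reads it was 11.8 and, in the same order, 13.9, 15.1, 12, 11.3 and 11.2. The share near start sites was 10.1% with the top 10%. The CTCF share of 6.05% was 1.45% with the top 10%, 9.47% in even members, 9% by the median score, 2.08% and 8.51% in windows of 100 and 400 bp, and 14.9% with 1 mismatch. The cause of the other changes was not tested. Even members, the median score, the rule without EN replicate 1 and the mismatch were alternatives chosen after seeing the data. The calls in H3K27ac, 2 higher and 1 lower, became 1 higher and 2 lower with a pseudocount of 5 and 5 lower without CV replicate 3. Histone scores of a few reads limit what can be called in these regions, and Hnf4g has 1 library per culture.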
